A study of Mus musculus with 8 samples.

Results

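Basement membrane expression was followed through 9 genes chosen by name: the laminin chains *Lama4*, *Lama5*, *Lamb1*, *Lamb2* and *Lamc1*, the nidogens *Nid1* and *Nid2*, the perlecan core protein *Hspg2*, and *Sparc*. They are 9 of the 54532 genes in the deposited count table, and all 9 had counts in every library. The RNAseq compared mG+ cells, sorted by FACS for membrane GFP, from female EC-*Tert*-KO mice and WT littermates aged 8 months. KO mice were Tie2e-cre; TERTfl/fl; mTmG and WT mice were Tie2e-cre; TERT+/+; mTmG, so that every mouse carried the Cre driven by the *Tie2e* promoter and the mTmG reporter. Cells came from subcutaneous adipose tissue (SAT) of mice given high-fat diet (HFD) between months 1 and 8, and, for mice given chow, from SAT, visceral adipose tissue (VAT) and gastrocnemius muscle. Each of these 4 tissue and diet conditions had 1 KO and 1 WT library, 8 in all, and whether a library pooled several mice is not stated.

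The vascular basement membrane is a thin sheet of matrix that endothelial cells (EC) and mural cells lay down between them. Laminins are its trimers of an α, a β and a γ chain. The α4 chain (*Lama4*) and the α5 chain (*Lama5*) are the α chains of blood vessels, *Lamb1* and *Lamb2* encode the alternative β chains, and *Lamc1* encodes the γ1 chain that most laminins share. Nidogens and perlecan link the laminin network to the type IV collagen network. *Sparc* encodes a collagen-binding matricellular protein that stromal and endothelial cells secrete.

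RefSeq promoter sequence (build GRCm38.p6) was matched for 6 of the 9 genes and not for *Lama4*, *Lamc1* and *Nid2*. In the window of 250 bases before the RefSeq start, the GC box GGGCGG, read on both strands, was found for 4 of the 6 genes: 5 times for *Hspg2*, 4 times for *Lama5*, 2 times for *Lamb1* and 1 time for *Nid1*. It was in 0 windows of the other genes, *Lamb2* and *Sparc*. Of the 250 bases, 0 for *Sparc* and 124 for *Lamb2* lie outside the gene as the deposited table places it. For the 4 genes with a GC box, 191 to 250 bases do. Of 27025 promoters with a window of this length, 32.9% held it at least once and 8.4% at least 3 times. The AP-1 letters TGANTCA (6.87% of all promoters), the E-box letters CACGTG (6.05%) and the ETS letters CCGGAAG (7.05%), also read on both strands, were each in 0 of the 6 windows. Below, the bases of the window that lie outside the gene in the deposited table are given 5′ to 3′ on the gene's strand, with GC boxes in capitals. *Hspg2* had the largest KO over WT difference within a pair among the 9 genes, and *Lama5* and *Lamb2* were the pair of genes whose levels followed each other most closely over the libraries, from windows with 72.4% and 43.6% G and C. The stretches are chr4:137468553-137468768 on the + strand for *Hspg2*, chr2:180225860-180226109 on the − strand for *Lama5* and chr9:108479612-108479735 on the + strand for *Lamb2*.
Hspg2: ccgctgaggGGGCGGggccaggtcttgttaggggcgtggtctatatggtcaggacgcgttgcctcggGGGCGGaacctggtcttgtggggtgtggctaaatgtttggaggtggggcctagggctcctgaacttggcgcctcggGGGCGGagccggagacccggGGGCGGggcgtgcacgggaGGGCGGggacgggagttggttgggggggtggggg
Lama5: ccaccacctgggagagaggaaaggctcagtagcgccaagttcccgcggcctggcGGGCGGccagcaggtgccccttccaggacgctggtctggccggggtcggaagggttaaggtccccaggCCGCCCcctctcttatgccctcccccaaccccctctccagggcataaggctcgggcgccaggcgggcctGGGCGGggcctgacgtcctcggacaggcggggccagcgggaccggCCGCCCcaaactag
Lamb2: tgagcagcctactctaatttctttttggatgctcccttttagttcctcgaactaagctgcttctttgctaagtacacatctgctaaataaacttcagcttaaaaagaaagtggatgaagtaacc

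Libraries held 6214269 to 18855772 counts. *Tert* counts were lower in KO than in WT in HFD SAT (114 in WT, 0 in KO), in chow SAT (70 and 11) and in muscle (24 and 7). In VAT the library labelled WT had 3 *Tert* counts and the library labelled KO had 9, so *Tert* does not show the VAT labels, and each VAT direction below is between libraries as labelled. The SAT chow WT library stood apart: *Malat1*, a nuclear RNA, took 0.0256% of its counts against 0.2037% to 0.6016% in the other libraries, and the KO over WT ratios of this pair rose with gene length. The SAT HFD WT library, the shallowest, also stood apart: *Gm26917* took 9.722% of its counts against 0.195% to 1.071% elsewhere. The HFD SAT ratios and the diet contrast rest on it, and the part of this gene in them was not tested. In HFD SAT, 4.19% of the genes with at least 30 counts in WT had 0 in KO, and 6.92% the other way round. In chow SAT 2.52% of such genes in KO had 0 in WT, and the remaining directions and pairs had 0.0535% to 0.176%. In sorted bulk samples, fewer cells of a type and less RNA per cell cannot be told apart.

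Levels are CPM, the counts of a gene in 1e6 counts of a library after TMM scaling. The SAT chow WT library was the lowest of the 8 for all 9 genes. The highest level was in the VAT library labelled KO for 5 genes (*Lama4*, *Lamb1*, *Lamc1*, *Nid1*, *Sparc*), in muscle KO for 3 (*Lama5*, *Lamb2*, *Hspg2*) and in the VAT library labelled WT for *Nid2*. From lowest to highest, the range was 4.27-fold for *Sparc*, the narrowest, and 11-fold for *Hspg2*, the widest. In every SAT library, 12 stromal markers summed to more CPM than 18 endothelial markers. The sums were 3380 and 453 (HFD WT), 3020 and 440 (HFD KO), 1350 and 760 (chow WT), and 4450 and 998 (chow KO). The VAT library labelled KO went the same way (3870 and 2660). The VAT library labelled WT (1980 and 3530) and both muscle libraries went the other way. The part of stromal cells in the levels was not tested.

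Among the α chains, *Lama4* was at 14.9 CPM in WT and 29.5 in KO for HFD SAT, 11.9 and 48.9 for chow SAT, 79.3 and 85.6 for VAT, and 69.4 and 69.3 for muscle. Every VAT and muscle library was above every SAT library. *Lama5*, which also serves epithelial basement membranes, was at 37.9 and 35 CPM (WT and KO, HFD SAT), 18 and 70.1 (chow SAT), 104 and 89.1 (VAT) and 103 and 158 (muscle). Its VAT and muscle libraries were likewise all above SAT, with muscle KO the highest.

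For the β chains, *Lamb1* was at 54.7 and 60.4 CPM (WT and KO, HFD SAT), 20.1 and 83.7 (chow SAT), 92.9 and 121 (VAT) and 43.6 and 52.2 (muscle). Muscle lay within the range of SAT, and VAT above it. *Lamb2* was at 58.1 and 43.8 CPM (HFD SAT), 27 and 81.9 (chow SAT), 117 and 130 (VAT) and 113 and 178 (muscle). Here muscle and VAT overlapped, and both were above SAT. The γ1 chain *Lamc1* was at 95.7 and 143 CPM (HFD SAT), 47.4 and 151 (chow SAT), 174 and 214 (VAT) and 125 and 107 (muscle). VAT was again highest, while both muscle libraries lay between the SAT chow libraries.

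Of the nidogens, *Nid1* was at 177 and 156 CPM (WT and KO, HFD SAT), 53.8 and 198 (chow SAT), 200 and 257 (VAT) and 69.5 and 94.8 (muscle). Both muscle libraries were below every library but SAT chow WT. *Nid2* was at 22.4 and 6.49 CPM (HFD SAT), 4.39 and 11.9 (chow SAT), 41.4 and 37 (VAT) and 15.1 and 12.5 (muscle). Its VAT libraries were above all others, and its 71 to 506 counts a library gave the lowest total of the 9 genes. Exons of *Nid2* share 437 bases, 8.45% of its exonic length, with *Rtraf* on the opposite strand. *Rtraf* had 6975 counts in all against 1796 for *Nid2*, the use of strand in counting is not stated, and reads in the shared bases cannot be assigned. *Nid1* shares 2.06% of its exonic length with the antisense gene *Gm48682*, which had 15 counts in all.

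*Hspg2* was at 153 and 145 CPM (WT and KO, HFD SAT), 45.1 and 337 (chow SAT), 436 and 479 (VAT) and 355 and 495 (muscle). All 4 VAT and muscle libraries were above the 4 SAT libraries. *Sparc* was at 190 and 178 CPM (HFD SAT), 111 and 302 (chow SAT), 274 and 474 (VAT) and 233 and 317 (muscle). The SAT chow KO library was within the range of VAT and of muscle.

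**Figure D1:**
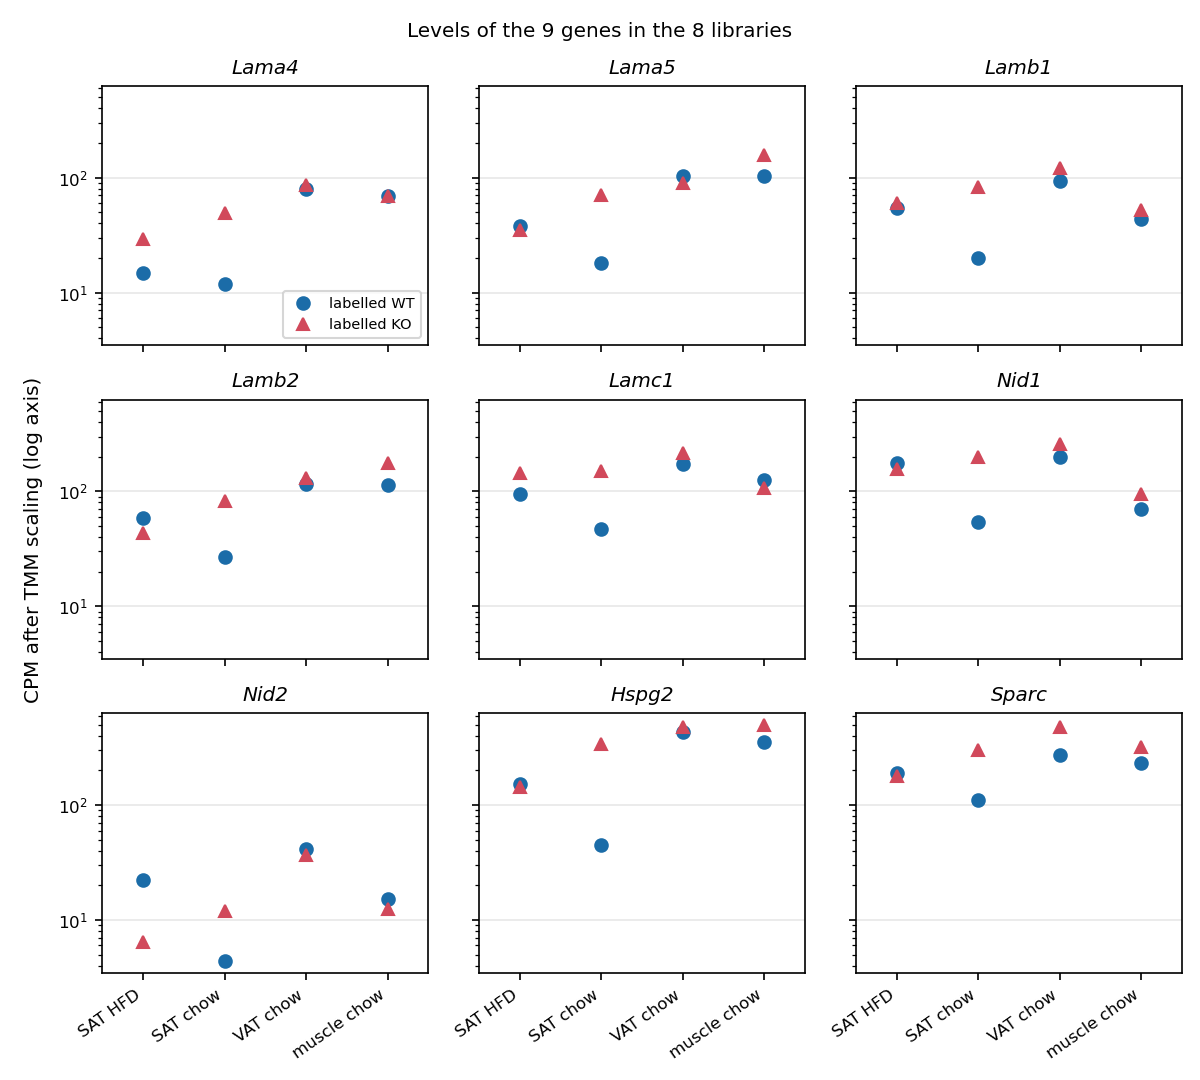
CPM after TMM scaling (log axis) of the 9 genes in each tissue and diet, with the library labelled WT as a circle and the library labelled KO as a triangle. The SAT chow WT library is the lowest point in all 9 panels, and *Nid2* lies below the other genes in most libraries.

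Compared per base of gene length within a library, *Sparc* had the highest level of the 9 genes in all 8 libraries, with 35.3% to 52.5% of their summed level per length. *Sparc* is the shortest of the 9 genes (3788 bases), and levels per length were not corrected for the trend on gene length in chow SAT. The 52.5% was in SAT chow WT, and the other libraries had 35.3% to 45.1%. *Nid1* came second in 5 libraries, and *Hspg2* in the VAT library labelled WT and in both muscle libraries. The lowest was *Nid2* in 5 libraries and *Lama4* in SAT HFD WT and both VAT libraries. The 9 genes together took 0.029% of all counts in SAT chow WT, 0.0894% and 0.0929% in HFD SAT (WT and KO), and up to 0.18% in the VAT library labelled KO.

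The first question was how the 9 genes differed between KO and WT within each tissue and diet. In chow SAT all 9 were higher in KO. The log2 ratio was 2.9 for *Hspg2* (7.46-fold; 95% counting interval 2.79 to 3.01), 2.06 for *Lamb1*, 2.04 for *Lama4*, 1.96 for *Lama5* and 1.88 for *Nid1*. It was lowest for *Nid2*, at 1.43 (1.04 to 1.85), and *Sparc*, at 1.44 (1.37 to 1.52). For all 9 the interval lay wholly beyond 2-fold, where 19.1% of the 16908 genes used were higher by that measure; 41.1% of genes had an interval above 0 and 40.2% below. With 1 library a genotype there is no replicate check, and intervals cover counting error only. The median of the 9 genes was 1.88, against 0 for all genes and 0.24 for the 7932 genes of the members' range of length, 3788 to 14307 bases. With the trend on gene length removed, all 9 ratios stayed above 0, from 1.04 (*Lama5*) to 1.73 (*Hspg2*), and 5 of 9 stayed beyond 2-fold. In that setting 2584 of the 16908 genes were higher beyond 2-fold. The median was then 1.29 for the 9 genes and −0.19 for all genes.

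Other values moved with this difference. From WT to KO in chow SAT, the summed level of 12 stromal markers went from 1350 to 4450 CPM (3.3-fold), that of 10 mural markers from 71.7 to 236 CPM (3.28-fold) and that of 18 endothelial markers from 760 to 998 CPM (1.31-fold). Of the 18 endothelial markers, 11 had an interval above 0 (41.1% of genes), 4 below 0 (40.2%) and 3 across it. The 3 beyond 2-fold higher (19.1% of genes) were *Kdr*, *Flt1* and *Ptprb*, named after their values were seen. They went from 27.5 to 89.3, 26.4 to 84.2 and 24.9 to 98.5 CPM. None of these sums was corrected for the trend on gene length. The mural marker *Cspg4* was at 0 in WT, and no stromal or endothelial marker was at 0 in either library. T cell markers went from 2190 to 854 CPM and neutrophil markers from 217 to 47.6 CPM. Macrophage markers went from 867 to 442 CPM and B cell markers from 1760 to 1200 CPM. *Malat1* was higher in KO by 4.33 on the log2 scale. The part of cell makeup and RNA quality in the result was not tested.

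In HFD SAT the 9 genes did not move together. *Nid2* was lower in KO, with 155 counts in WT and 84 in KO and a log2 ratio of −1.78 (−2.19 to −1.4). It was the only one of the 9 beyond 2-fold, where 10.9% of genes were lower by that measure and 12.9% higher. *Rtraf*, which overlaps *Nid2*, had a log2 ratio of −0.21 in this pair. *Lama4* was higher in KO at 0.98 (0.67 to 1.31) and *Lamc1* at 0.58 (0.45 to 0.71), while *Lamb2* was lower at −0.41 (−0.6 to −0.22) and *Nid1* at −0.18 (−0.29 to −0.08). The intervals of *Lama5*, *Lamb1*, *Hspg2* and *Sparc* held 0. Of all genes, 39.4% had an interval above 0 and 33.2% below. Stromal markers summed to 3380 CPM in WT and 3020 in KO, mural markers to 154 and 150, and endothelial markers to 453 and 440.

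In VAT, 6 of the 9 genes had an interval above 0 (background 26.6%), 1 below 0 (24.7%) and 2 across it, and 0 were beyond 2-fold (2.4% of genes higher and 2.09% lower). *Sparc* differed most, with 2470 counts in the library labelled WT and 6486 in the library labelled KO, a log2 ratio of 0.79 (0.72 to 0.86). *Lama5* was lower in the library labelled KO, at −0.22 (−0.35 to −0.1). Mural markers summed to 184 CPM in the library labelled WT and 748 in the library labelled KO, stromal markers to 1980 and 3870, and endothelial markers to 3530 and 2660. All markers of these 3 lists were above 0 in both libraries, and their part in the result was not tested. Myofibre markers summed to 129 CPM in the library labelled WT and 11.7 in the library labelled KO, and their part was not tested either.

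In muscle, 6 of 9 genes had an interval above 0 (background 27.1%), 1 below (28.9%) and 2 across, and again 0 were beyond 2-fold (2.76% of genes higher and 2.01% lower). *Lamb2* was higher in KO at 0.66 (0.57 to 0.75), *Lama5* at 0.61 (0.52 to 0.71), *Hspg2* at 0.48, *Nid1* at 0.45 and *Sparc* at 0.44. *Lamc1* was lower at −0.23 (−0.32 to −0.13), and *Lama4* was level at 0 (−0.13 to 0.12). Stromal markers summed to 1290 CPM in WT and 2370 in KO, mural markers to 180 and 384, and endothelial markers to 3200 and 3950, with no marker of these lists at 0 and their part not tested.

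**Figure D2:**
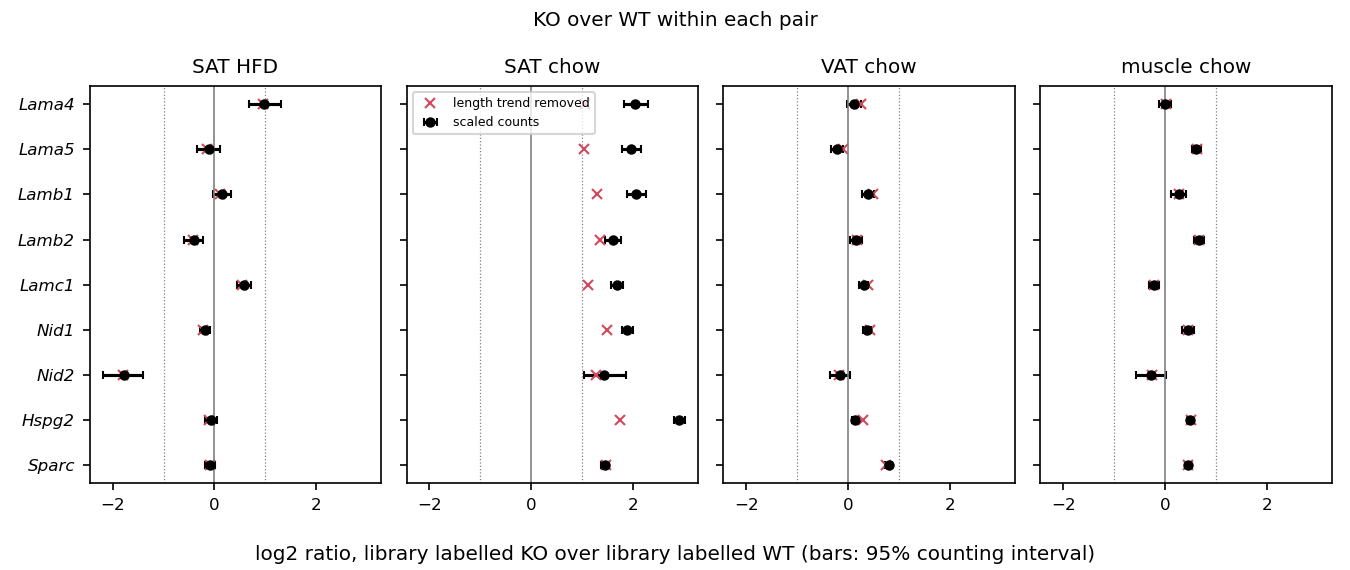
log2 ratio of the library labelled KO to the library labelled WT for the 9 genes in each tissue and diet, as black points with 95% counting intervals, and with the length trend removed as crosses; dotted lines mark 2-fold. In chow SAT all 9 points lie beyond 2-fold, and in the other pairs *Nid2* on HFD is the only one that does.

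*Lamb1* was higher in the library labelled KO in all 4 pairs, the only one of the 9 (background 5.26% of genes), and *Lamb1*, *Lamb2*, *Nid1*, *Hspg2* and *Sparc* were higher in the 3 chow pairs, VAT included (5 of 9, background 11.5%). A genotype effect shared by the 4 pairs was tested with edgeR's quasi-likelihood test, with tissue and diet as a block. None of the 9 genes passed a Benjamini-Hochberg adjusted p of 0.05, where 1 of 16971 genes did (0.00589%), and 0 of the 9 had an unadjusted p under 0.05 against 1.62% of genes. DESeq2's Wald test called 0 of the 9 as well, and 19 of 16971 genes. The estimates ran from a log2 change of −0.2 (SE 0.509) for *Nid2* to 0.79 (SE 0.493) for *Hspg2*, and 8 of 9 were above 0. The median of the 9 was 0.61 and that of all genes 0.03. *Sparc* had the smallest error, 0.65 with an SE of 0.289 and an edgeR adjusted p of 1. Without the SAT chow pair *Hspg2* fell to 0.18 and *Lama5* to 0.09, and without the SAT HFD pair *Nid2* turned to 0.31.

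The tissue contrasts asked whether the 9 genes differ between cells of SAT, VAT and muscle on chow, each with 2 libraries, KO and WT. They share libraries: chow SAT enters 3 of the 4 contrasts of condition. For VAT over SAT all 9 estimates were positive, with log2 changes of 2.22 (SE 0.711) for *Nid2*, 1.67 (SE 0.519) for *Lama4*, 1.57 (SE 0.693) for *Hspg2*, 1.31 (SE 0.53) for *Lama5* and 1.3 (SE 0.466) for *Lamb2*. *Sparc* had the smallest, 0.92 (SE 0.404). None passed the adjusted threshold in edgeR, where 4.97% of genes did (3.13% higher and 1.84% lower), the adjusted p running from 0.12 to 0.28. By unadjusted p under 0.05, 6 of 9 passed, against 20.7% of genes. Both VAT libraries were above both SAT chow libraries for 8 of 9 genes (background 26.6%), the exception being *Sparc*.

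Calls in this contrast changed with the SAT chow library used, the filter and the tool. Without SAT chow KO all 9 genes passed, with *Hspg2* at 3.25 and an edgeR adjusted p of 0.00284, and 3539 genes were called in place of 844. Without SAT chow WT none passed, all 9 stayed positive, and *Hspg2* was at 0.7. With no filter on low counts 6 of the 9 passed, as did 2095 of 29627 genes. DESeq2's Wald test called 3 of the 9 (*Lama4*, *Lamb2* and *Nid2*) and 2280 of 16971 genes. Endothelial markers moved the same way: all 18 were higher in both VAT libraries than in both SAT chow libraries, and 11 of 18 were called, against 3.13% of genes called higher. Macrophage markers were called higher in 8 of 8 cases, their sum being 867 and 442 CPM in chow SAT (WT and KO) and 9140 and 9020 in VAT. B cell and T cell markers were called lower in 5 of 5 cases each and epithelial markers in 6 of 8, against 1.84% of genes called lower. Of the stromal and mural markers, 0 of 12 and 0 of 10 were called. The mural median was 1.44 with 8 of 10 above 0, and the stromal median 0.24 with 7 of 12 above 0. The median of the 9 genes, also without a call, was 1.3. The part of these cell types in the result was not tested.

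For muscle over SAT the 9 genes split. *Lama5* was at 1.67 (SE 0.524), *Lamb2* at 1.49 (SE 0.464), *Lama4* at 1.43 (SE 0.517) and *Hspg2* at 1.42 (SE 0.683). *Lamb1* was at 0.08 (SE 0.483), *Lamc1* at 0.4 (SE 0.448) and *Nid1* at −0.48 (SE 0.472). None passed in edgeR (background 1.27%, with 1.1% higher and 0.171% lower, and adjusted p from 0.22 to 0.984), 3 had an unadjusted p under 0.05 (11.5% of genes), and for 5 of 9 both muscle libraries were above both SAT chow libraries (20.7%). With SAT chow KO left out, 9 of 9 estimates were positive, with *Hspg2* at 3.13 and *Lamb1* at 1.12. With SAT chow WT left out, 5 of 9 were positive, and *Lamb1* was at −0.56. Of the endothelial markers 8 of 18 were called higher (1.1% of genes), and all 18 were higher in both muscle libraries. Neutrophil markers were called higher in 8 of 8 cases, and 0 of 12 stromal and 0 of 10 mural markers were called. The mural median was 0.74 with 7 of 10 above 0, and the stromal median −0.98 with 2 of 12 above 0. The median of the 9 genes was 0.7. The part of these cell types was not tested.

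For muscle over VAT, *Nid1* was at −1.49 (SE 0.474), *Nid2* at −1.51 (SE 0.686) and *Lamb1* at −1.14 (SE 0.478), whereas *Lama5* was at 0.36 (SE 0.509) and *Lamb2* at 0.19 (SE 0.453). None of the 9 passed in edgeR (background 2.02%, with 0.99% higher and 1.03% lower, and adjusted p from 0.203 to 0.981), and 2 of 9, *Nid1* and *Lamb1*, had an unadjusted p under 0.05 (12.8% of genes). Both muscle libraries were below both VAT libraries for 5 of 9 genes (28.6% of all genes, with 33.4% separated upward): *Lama4*, *Lamb1*, *Lamc1*, *Nid1* and *Nid2*. DESeq2's Wald test called 1 of the 9, *Nid1*, at −1.56 and an adjusted p of 0.0354, and 1253 of 16971 genes. Macrophage markers were called lower in 8 of 8 cases (median −4.59), neutrophil markers higher in 8 of 8 (median 7.89) and B cell markers higher in 4 of 5. Of the endothelial, stromal and mural markers, 0 of 18, 0 of 12 and 0 of 10 were called. Their medians were 0.16, −0.92 and −0.63, and that of the 9 genes was −0.41. The part of these cell types was not tested.

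Diet was compared in SAT. None of the 9 genes differed between HFD and chow by edgeR's adjusted p, nor did any of the 16971 genes (0%), while 0 of the 9 and 9.25% of all genes had an unadjusted p under 0.05, and DESeq2's Wald test called 0 of the 9 and 246 genes. Estimates ran from −0.33 (SE 0.504) for *Lama4* to 0.72 (SE 0.725) for *Nid2*, 5 of 9 were above 0, and for 0 of 9 did the HFD and chow libraries separate (7% of genes separated upward and 26.6% downward). The median of all genes was −0.32 here. Cell type markers moved in this contrast without being called: 15 of 18 endothelial (median −1.36), 8 of 8 macrophage and 8 of 8 epithelial markers were lower in both HFD libraries than in both chow libraries, against 26.6% of genes. The endothelial sum was 453 and 440 CPM on HFD (WT and KO) and 760 and 998 on chow, and the part of these cell types was not tested. The direction turned with the scaling: 8 of 9 were above 0 by DESeq2 size factors, library totals or upper quartile scaling. It also turned with the library left out, 3 of 9 being above 0 without SAT HFD WT, 8 of 9 without SAT HFD KO, 1 of 9 without SAT chow WT and 9 of 9 without SAT chow KO, when *Hspg2* passed at 1.64 with an edgeR adjusted p of 0.048. Among the 9 genes, *Nid2* differed most between WT and KO in the HFD libraries.

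**Figure D3:**
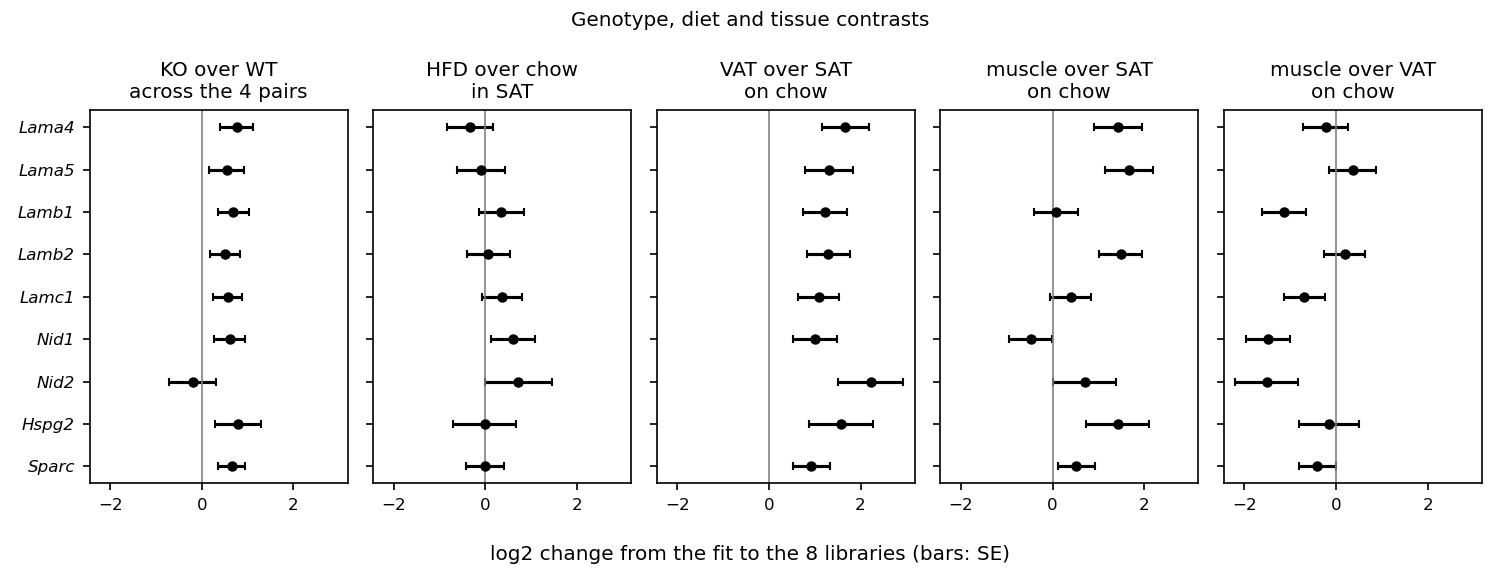
log2 change (points) and standard error (bars) of the 9 genes in the genotype, diet and tissue contrasts of the edgeR fit to the 8 libraries. All 9 points are above 0 for VAT over SAT, and no estimate in any panel passed an adjusted p of 0.05.

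Because laminin chains assemble in fixed proportion, the shares of alternative chains were compared within each library, where scaling between libraries plays no part. The trend on gene length in chow SAT stays in shares of genes of unlike length, such as *Lamb1* (9917 bases) and *Lamb2* (6082 bases). With it removed, the chow SAT log2 ratios were 1.29 for *Lamb1* and 1.34 for *Lamb2*. They were 1.06 for *Lama4*, 1.04 for *Lama5*, 1.49 for *Nid1* and 1.27 for *Nid2*. The shares given here were not corrected for this trend. *Lama4* made up, per length, 27.1% of *Lama4* and *Lama5* in SAT HFD WT and 44.3% in KO, 38.4% and 39.7% in chow SAT, 41.9% and 47.5% in VAT, and 38.9% and 29.3% in muscle. The share was thus highest in the VAT library labelled KO and higher in the library labelled KO in 3 pairs, with overlapping intervals in chow SAT, but lower in muscle. *Lamb1* made up 36.6% and 45.8% of *Lamb1* and *Lamb2* in HFD SAT (WT and KO), 31.4% and 38.5% in chow SAT, 32.7% and 36.3% in VAT, and 19.2% and 15.2% in muscle. Both muscle libraries were below every adipose library, with 95% binomial intervals of 17.9% to 20.6% and 14.2% to 16.4%. *Lamb2*, the β2 chain, found among other sites at the neuromuscular junction, was the larger share in all 8 libraries, adipose included.

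*Nid1* made up 85.5% of the nidogens in SAT HFD WT and 94.7% in KO, 90.1% and 92.5% in chow SAT, 78.3% and 83.8% in VAT, and 77.4% and 85% in muscle. The share was higher in the library labelled KO in 4 of 4 pairs, with a mean log2 difference of 0.82 ± 0.54 (SD, n = 4 pairs). An exact two-sided sign-flip permutation test over the pairs gave p = 0.125, the smallest that 4 pairs allow, and 0.375 after adjustment over the 3 shares tested. For *Lama4* the mean difference was 0.22 ± 0.71 (exact permutation p = 0.625) and for *Lamb1* 0.21 ± 0.43 (exact permutation p = 0.375). The reads that *Nid2* may share with *Rtraf* enter the nidogen share.

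**Figure D4:**
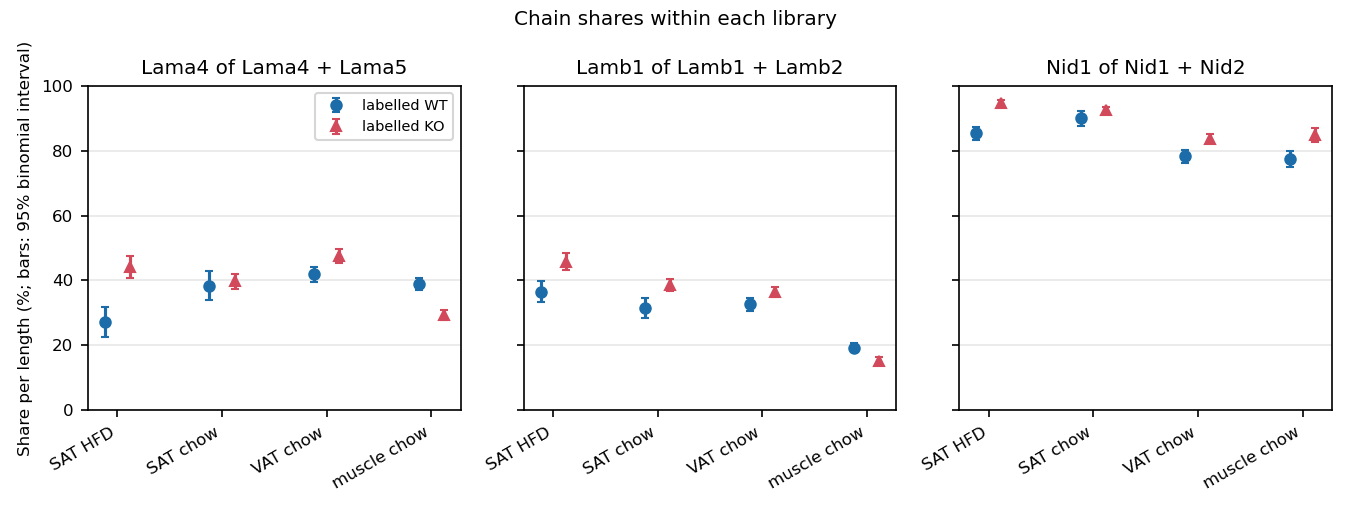
Share per length (%) of *Lama4* in *Lama4* + *Lama5*, *Lamb1* in *Lamb1* + *Lamb2* and *Nid1* in *Nid1* + *Nid2* in each library, with 95% binomial intervals that cover counting error only. The *Nid1* share is higher in the library labelled KO in all 4 pairs, and the *Lamb1* share is lowest in muscle.

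Per length and relative to *Lamc1*, the α4 and α5 chains together were at 0.319 to 0.558 in the 4 SAT libraries, 0.744 and 0.577 in VAT (labelled WT and KO) and 0.98 and 1.52 in muscle (WT and KO). Both muscle libraries were above all 6 adipose libraries. *Lama2*, a further α chain, is not in this ratio. Per length it was at 10 and 14.4 in HFD SAT (WT and KO) and 1.31 and 15.9 in chow SAT. It was at 6.53 and 9.02 in VAT and 4.35 and 3.97 in muscle. *Lama2* was above *Lama4* and *Lama5* each in both SAT KO libraries, and below each in VAT and muscle. The order of SAT and VAT given here therefore holds for α4 and α5 only. *Lamb1* and *Lamb2* together were at 0.768 to 1.36 in adipose libraries and at 1.52 and 2.68 in muscle. *Hspg2* per *Lamc1* was at 0.55 to 1.45 in adipose libraries and at 1.64 and 2.68 in muscle. The nidogens were at 0.856 and 1.24 in muscle, below every adipose library. These ratios to *Lamc1* were not corrected for the trend on gene length in chow SAT.

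Other genes of the basement membrane were followed as lists. Of the type IV collagen chains, *Col4a1* and *Col4a2* form the trimer of vascular membranes. In chow SAT *Col4a1* had 712 counts in WT and 4195 in KO, a log2 ratio of 2.56, and *Col4a2* 394 and 2450, a log2 ratio of 2.64. In HFD SAT the same ratios were −0.11 and 0.27. The list as a whole was beyond 2-fold higher in 4 of 6 chains in chow SAT (background 19.1%). *Col4a3* and *Col4a4*, with *Col4a5* the chains of the kidney filter among other sites, are among those 4, with 50 counts or fewer. In HFD SAT, 3 of the 5 chains with enough counts were beyond 2-fold lower, as were 10.9% of all genes: *Col4a3* (27 counts in WT), *Col4a4* (36) and *Col4a5* (31) all had 0 counts in KO, at least 16.8-fold, 22.5-fold and 19.3-fold lower against a floor of 3 counts. Losses to 0 were frequent in this pair.

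Of the other laminin chains, *Lama2*, the α chain of muscle fiber and nerve basement membranes, named after its values were seen, went from 226 to 1657 counts in chow SAT, a log2 ratio of 2.87. It and *Lamc3* were the 2 of 5 beyond 2-fold higher there (background 19.1%). *Lama2* was at 49.5 and 88.1 CPM (WT and KO, HFD SAT), 14 and 103 (chow SAT), 33.5 and 49.2 (VAT) and 25.6 and 20.6 (muscle), so that it was lower in both muscle libraries than in VAT or HFD SAT, whereas *Lama4* and *Lama5* were higher in both muscle libraries than in HFD SAT. None of the 5 chains tested was called in any contrast.

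Among 14 other basement membrane components, 6 of 13 were beyond 2-fold higher in chow SAT (background 19.1%). Across pairs all 14 had positive estimates (median 0.7, all genes 0.03), with 0 called and 4 at an unadjusted p under 0.05 (background 1.62%). *Egflam*, which encodes pikachurin, was at 1.32 (SE 0.52). For VAT over SAT *Tinagl1*, a laminin-binding matrix protein, was called at 2.08 (SE 0.298, edgeR adjusted p 0.012), and for muscle over SAT at 2.69 (SE 0.305, adjusted p 0.0108), the only 1 of 14 in each (3.13% and 1.1% of genes called higher). It was at 17.4 and 29.3 CPM in chow SAT (WT and KO), 77.8 and 118 in VAT, and 126 and 167 in muscle.

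Of 11 receptors for laminin and type IV collagen, 3 were beyond 2-fold higher in chow SAT, where 19.1% of all genes were. *Bcam*, a receptor for the α5 chain, was the only 1 of the 11 called, for VAT over SAT (3.13% of genes called higher) at 1.7 (SE 0.315, edgeR adjusted p 0.0247) and for muscle over SAT (1.1%) at 1.96 (SE 0.318, adjusted p 0.0338). It was at 40.4 and 33.2 CPM in chow SAT, 112 and 127 in VAT, and 121 and 165 in muscle. Of 14 matrix processing enzymes, 5 were beyond 2-fold higher in chow SAT (background 19.1%), and for VAT over SAT 2 were called higher (background 3.13%): the collagen lysyl hydroxylase *Plod1* at 2.25 (SE 0.312, edgeR adjusted p 0.0108) and the heparan sulfate polymerase *Ext1* at 1.49 (SE 0.332, adjusted p 0.0452). The second lost its call under library totals (adjusted p 0.0501).

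Of 11 proteases and inhibitors, 4 were beyond 2-fold higher and 2 lower in chow SAT (background 19.1% and 11.5%). For VAT over SAT 3 of the 11 were called higher (background 3.13%). *Mmp9*, a type IV collagenase that neutrophils store, was called at 3.93 (SE 0.48, edgeR adjusted p 0.00759), the lysosomal protease *Ctsl* at 1.65 (SE 0.347, adjusted p 0.038) and the inhibitor *Timp2* at 1.76 (SE 0.337, adjusted p 0.0278). *Mmp9* was also called for muscle over SAT at 4.81 (SE 0.499, edgeR adjusted p 0.00964), and *Timp2* for muscle over VAT at −2.05 (SE 0.339, adjusted p 0.0278). *Mmp9* was at 9.25 to 49.1 CPM in SAT, 507 and 515 in VAT and 943 and 936 in muscle. Neutrophil markers summed to 47.6 to 254 CPM in adipose libraries and to 22000 and 26500 in muscle, and macrophage markers to 9140 and 9020 in VAT and 188 to 867 elsewhere; their part was not tested. Of these list genes, *Mmp9* kept its calls when any 1 of the compared libraries was left out, and every other call was lost without either library of VAT or, for muscle over SAT, of muscle. *Timp2* for muscle over VAT was lost without any 1 of the 4 libraries.

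**Figure D5:**
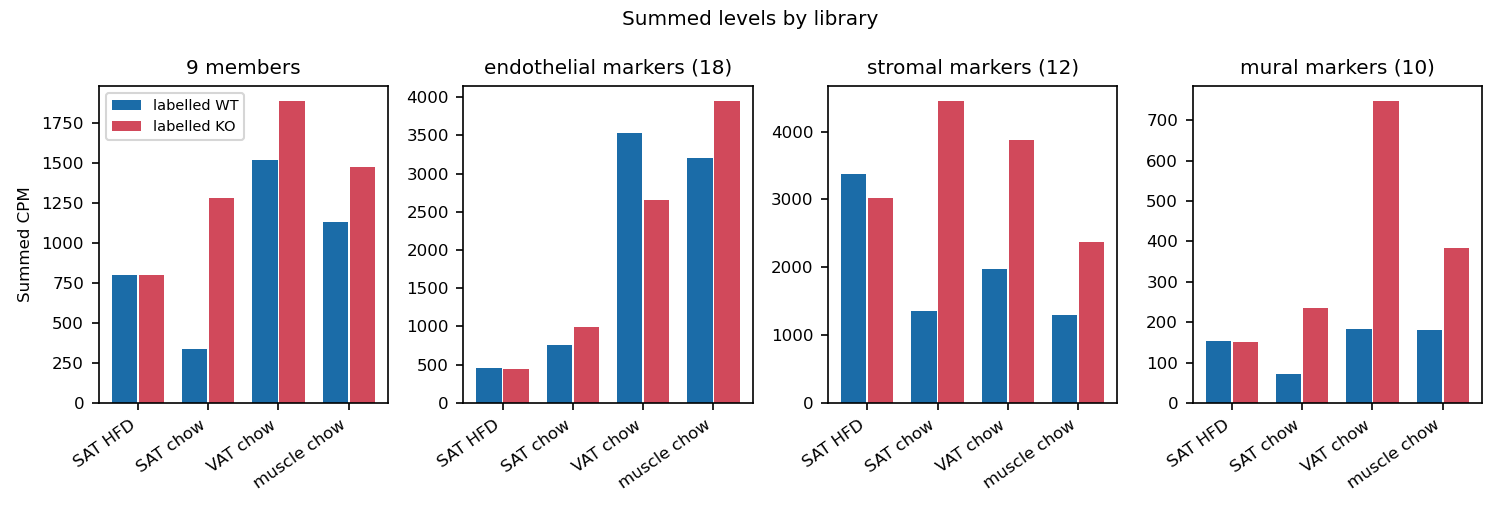
Summed CPM of the 9 genes and of the endothelial, stromal and mural marker lists in each library, with the library labelled WT in blue and the library labelled KO in red. The 9 genes sum to 339 CPM in SAT chow WT and 1280 in KO, where the stromal and mural sums also differ by over 3-fold.

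The genes whose log2 CPM was most like each of the 9 over the 8 libraries, among 11461 protein-coding genes, are given as a description, since the libraries share tissues and depth differs between them. *Hspg2* was closest to *Lrrc32* (Pearson's r 0.999), *Col4a1* (0.991) and *Dlc1* (0.991), and *Lama4* to *Meis1* (0.988), *Amotl1* and *Sema4c*. *Lama5* was closest to *Fat4* (0.991), *Lamb2* (0.987) and *Tns2* (0.982), and *Lamb2* to *Tns2* (0.988), *Lama5* and *Fam135a*. *Lamb1* was closest to *Sphk1* (0.973), *Adamts5* and *Dsel*, *Lamc1* to *Erf* (0.967), *Il6* and *Irf2bp2*, and *Nid1* to *Fstl1* (0.977), *Tnxb* and *Islr*. *Nid2* was closest to *Serpinb2* (0.993), *Nup210l* and *Mitf*, and *Sparc* to *Plpp3* (0.964), *Rhoj* and *Cald1*. Among the 36 pairs of the 9 genes, r over the 8 libraries ran from 0.26 for *Lama5* and *Nid1* to 0.987 for *Lama5* and *Lamb2*, with a median of 0.774.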

How the data were processed

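The authors deposited whole-number, unnormalized counts for each Ensembl gene. Per the labels, RNA was isolated with a column kit and libraries were made with a SMARTER mRNA kit; Trizol is the reagent in the paper's methods. The submitters' processing notes name HISAT2 2.0.5 and GRCm38 (mm10); the counting program and its use of strand are not given in the sources used here. All 9 genes lie at the same coordinates in GENCODE M21. Members and gene lists, 6 of matrix genes and 14 of cell type markers, were chosen with earlier results of these data known.

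Counts were scaled by TMM (edgeR 4.0.16, R 4.3.3), with factors of 0.857 to 1.16, to CPM with a prior count of 0.5. Libraries held 6214269 to 18855772 counts, so 3 counts are 0.1591 to 0.4828 CPM. Within pairs, 95% intervals are exact conditional binomial (Clopper-Pearson) intervals of the KO to WT ratio, for genes averaging 10 or more counts over the pair; they cover counting error only. Levels per length are counts over the table's gene length, scaled to the library. Across libraries, edgeR's robust quasi-likelihood test was fitted to the 16971 genes averaging 10 or more counts, with condition (tissue and diet) and genotype as terms, with Benjamini-Hochberg adjustment. A condition is 1 WT and 1 KO library. The residual spread therefore holds any genotype effect that differs between conditions together with variation between mice, sorts and libraries. These cannot be told apart, and separate cultures or animals are not stated. The design pairs KO with WT by tissue and diet: after genotype means were subtracted, the libraries of a pair correlated at 0.253 (HFD SAT), 0.0567 (chow SAT), 0.561 (VAT) and 0.517 (muscle). Libraries of different conditions correlated at −0.333 to 0.176, a range that holds the chow SAT value.

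Alternatives were DESeq2 1.42.0 size factors and Wald test, library totals, upper quartile scaling, no filter, a filter at a mean of 50 counts, a prior count of 5, removal of the length trend over 100 bins, no block, and leaving out each library or pair. The procedures were tested on simulated data. Named genes are the 9 members, *Tert*, from each list up to 4 called genes with the largest change in a contrast, or up to 2 where none was called, and the 3 genes most correlated with each member.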

Additional observations from a re-analysis of the deposited data

Results flagged for a closer look

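*Lamb1* in chow SAT stood far from the other pairs, with a KO over WT log2 ratio of 2.06 against 0.14, 0.38 and 0.26. By such a gap about 1 in 20 groups is picked out by chance.

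For 5 genes the counting intervals lay on opposite sides of 0 in different pairs; with 1 library per genotype these differences between pairs were not tested. *Lama5* had log2 ratios of 1.96 in chow SAT and 0.61 in muscle, and −0.22 in VAT as labelled. *Lamb2* had −0.41 in HFD SAT, 1.6 in chow SAT, 0.15 in VAT and 0.66 in muscle. *Lamc1* had 0.58 in HFD SAT, 1.67 in chow SAT, 0.3 in VAT and −0.23 in muscle. *Nid1* had −0.18 in HFD SAT, 1.88 in chow SAT, 0.36 in VAT and 0.45 in muscle. *Nid2* had −1.78 in HFD SAT and 1.43 in chow SAT.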

How the results depend on the processing

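With 1 library per genotype in a condition, SAT chow WT lowest for all 9 genes and VAT labels that *Tert* does not show, the 9 genes gained calls without SAT chow KO, with no filter and by the Wald test, and directions turned with the library left out and, for HFD over chow, with the scaling; the cause was not tested. Counts of 71 to 192 for *Nid2* in chow SAT limit its precision. The fit without the block was made for the genotype contrast only.

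Across pairs, the genes called numbered 0 with upper quartile scaling, 42 with no filter, 19 by DESeq2's Wald test, 2 with the length trend removed, 0 without the replicate block and 0 to 2 with a pair left out, against 1; the 9 genes had 0 calls in each. For HFD over chow they numbered 314 with no filter, 246 by the Wald test and 0 to 457 with a library left out, with 0 to 1 of the 9 genes. For VAT over SAT they numbered 2095, 2280 and 109 to 3539, against 844, with 6, 3 and 0 to 9 of the 9 genes. For muscle over SAT they numbered 957, 1053 and 38 to 1793, and 364 with the length trend removed, against 215, with 4, 2 and 0 to 5 of the 9 genes. For muscle over VAT they numbered 1155, 1253 and 43 to 81, and 529 with the length trend removed, against 343, with 1, 1 and 0 of the 9 genes. In chow SAT 5 of 9 genes were beyond 2-fold higher with the length trend removed, as were 2584 of 16908 genes. Library totals moved the share of genes beyond 2-fold that were higher in KO to 77.5% for chow SAT (62.5% with TMM, 74.9% with upper quartile scaling) and to 70.2% for muscle (57.8% with TMM).

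For HFD over chow, *Lama5* turned to 0.12, 0.17, 0.13 and 0.12 under DESeq2 size factors, library totals, upper quartile scaling and the Wald test, *Hspg2* to 0.19, 0.24, 0.19 and 0.19, and *Sparc* to 0.22, 0.28, 0.25 and 0.22, while *Lamb2* fell to 0 with the length trend removed. *Lamb1* for muscle over SAT turned to −0.06 with the length trend removed. With a library left out, HFD over chow ran from −0.85 to 0.7 for *Lama4*, −0.74 to 0.97 for *Lama5*, −0.26 to 1.38 for *Lamb1*, −0.45 to 0.85 for *Lamb2*, −0.1 to 1.21 for *Lamc1*, −0.27 to 1.91 for *Nid2*, −0.93 to 1.64 for *Hspg2* and −0.36 to 0.55 for *Sparc*. Muscle over SAT ran from −0.56 to 1.12 for *Lamb1*, −0.15 to 1.19 for *Lamc1*, −1.06 to 0.49 for *Nid1* and −0.02 to 2.01 for *Nid2*, and muscle over VAT from −0.84 to 0.26 for *Lama4*, −0.19 to 0.91 for *Lama5*, −0.12 to 0.42 for *Lamb2* and −0.64 to 0.34 for *Hspg2*. With a pair left out, *Nid2* across pairs ran from −0.72 to 0.31, and the mean log2 difference of the *Lama4* share from −0.07 to 0.5. For VAT over SAT, *Ext1* was lost under library totals (adjusted p 0.0501) and upper quartile scaling (0.0642), and *Ctsl* under upper quartile scaling (0.0566).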
